A study of Pan troglodytes with 38 samples.

Results

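Myoglobin and the enzymes and transporter of the creatine kinase energy shuttle were followed through the hearts of 38 chimpanzees. The group was defined by name, as the entries of the chimpanzee gene-count table whose Ensembl identifier carries one of the symbols MB, CKM, CKMT2, CKB, SLC6A8, AK1 and AMPD3. All 7 symbols were found, each with 1 entry, among the 31373 genes of the table. The rule itself used no expression value, but the symbols were chosen with earlier results of these data known. The identifiers were ENSPTRG00000023553 (MB), ENSPTRG00000011147 (CKM), ENSPTRG00000024170 (CKMT2), ENSPTRG00000006756 (CKB), ENSPTRG00000050829 (SLC6A8), ENSPTRG00000021402 (AK1) and ENSPTRG00000003355 (AMPD3).

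The series measured polyadenylated RNA from frozen heart tissue of captive chimpanzees (Pan troglodytes), collected after death, with 1 library per animal. The labels put every animal in a single group, post-mortem heart, so the labels define no treated or control arm. The study states that some of the animals came from laboratories and had been exposed to hepatitis B or hepatitis C virus, and this was not a term in the models here. In its sample table the animals listed as positive, 4X0354 and 4X0339 among them, all belong to the 2018 extraction and to a center other than Yerkes. The sample table of the study gave 22 females and 16 males, ages at death from 10 to 57 years for 34 animals (median 32), and an RNA integrity number (RIN, a score of RNA degradation) from 2.5 to 8.4. RNA of 21 animals was extracted in 2018 and that of the other 17 animals in an earlier year (the earlier extraction); by the same table the 17 had been described before, so the year of extraction and the origin of the library cannot be told apart. Some of these animals are relatives, and the p-values below treat animals as independent. The heart chamber was not given in the sources used here.

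Myoglobin, the product of MB, binds oxygen inside heart and oxidative skeletal muscle cells. Creatine kinases move the high-energy phosphate of ATP to creatine and back: the mitochondrial enzyme encoded by CKMT2 makes phosphocreatine where ATP is produced, and the cytosolic enzymes encoded by CKM (the muscle subunit) and CKB (the brain subunit, present in many tissues) regenerate ATP where it is spent. Creatine is not made in heart muscle in quantity and enters the cell through the transporter encoded by SLC6A8. Adenylate kinase 1 (AK1) interconverts ADP with ATP and AMP, and AMP deaminase 3 (AMPD3), an isoform best known from red blood cells, removes AMP as IMP.

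Gene totals ran from 43892814 to 132478050 counts per library (median 63639041). The 13 protein genes of the mitochondrial genome held 17.2 to 60.1% of them (median 30.4%). All 12 cardiomyocyte markers checked were detected in the median animal, and their summed level ran from 8450 to 108705 CPM (counts scaled to a common library size by TMM, the trimmed mean of M-values). A pair of animals stood apart, Little_R and 537, both of the 2018 extraction. They had the lowest cardiomyocyte sums (8450 and 14455 CPM against a median of 68702), the highest fibroblast sums (6055 and 4780 CPM against a median of 1063) and mitochondrial shares of 48.3 and 60.1%. Animal 495 was next on the cardiomyocyte sum (16814 CPM). Shares above that of Little_R were also found in 558 (53.9%), 529 (52.7%) and 4X0339 (51.7%). Animal 549, a male of the earlier extraction, had the highest sum of 6 atrial markers (21135 CPM, median 274) and the lowest sum of 5 ventricular markers (225 CPM, median 12712). Levels and coefficients of variation are over all 38 animals. Values without Little_R, 537 or 549 are given beside the estimates and correlations that these animals move. In tissue RNA, fewer cells of a type and less RNA per cell cannot be told apart.

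MB was abundant in every heart. Its level was 1772 CPM in the lowest animal (Little_R), 11991 CPM at the median and 21538 CPM in the highest (438), with a mean of 11404 ± 4673 CPM (SD, n = 38). MB alone took 0.214 to 2.74% of the counts outside the mitochondrial genes (median 1.83%). The 7 genes together took 0.299% in Little_R, 3.36% in 503 and 2.34% at the median. Little_R and 537 (2091 CPM) were well below the next animal, 495 (4276 CPM), and the coefficient of variation over all 38 animals was 41.0%. The 17 hearts of the earlier extraction spanned 5639 to 21538 CPM, and their median of 11743 CPM lay close to the 12281 CPM of the 2018 hearts. The ranges overlapped.

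The muscle creatine kinase CKM had 486 CPM in the lowest animal (Little_R), 2448 CPM at the median and 5006 CPM in the highest (4X0339), with a coefficient of variation of 43.8%. Its low end held 3 animals of 2018, Little_R, 4X0354 (509 CPM) and 537 (597 CPM). In 4X0354 the low level was not shared by all members: CKM was 0.208 times its median there, SLC6A8 0.328 times and MB 0.469 times, whereas CKMT2 was 0.719 times. The same animal had the highest adipocyte sum of the cohort (847 CPM, median 191), an atrial sum of 8153 CPM (median 274), a skeletal muscle sum of 108 CPM (median 15.8), an endothelial sum of 1711 CPM (median 777) and a cardiomyocyte sum of 41080 CPM (median 68702). Their part in these levels was not tested.

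The mitochondrial creatine kinase CKMT2 had the widest span of the 7 genes. It was 40.9 CPM in Little_R, 623 CPM at the median and 1423 CPM in 503, a 34.8-fold span, and the median animal had 44054.5 counts. That ranking rested on Little_R: without it the span was 19.1-fold, against 20.9-fold for CKB. Without Little_R and 537 (74.4 CPM), the lowest animal was 570 (238 CPM). The ratio of CKM to CKMT2 counts, compared between animals and not read as a ratio of levels per length, was 3.46 at the median, 1.14 in 4X0354 and 11.9 in Little_R. Heart 503 had the highest CKMT2 and the next-to-highest MB and CKM.

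CKB encodes the brain-type subunit. Its level was 20.9 CPM in the lowest animal (570), 104 CPM at the median and 437 CPM in the highest (549), and its coefficient of variation, 73.0%, was the largest of the group. The high end was made up of 549, 4X0339 (396 CPM) and 623 (244 CPM), and 549 had 4.20 times the median. In the atrial-marker-rich heart 549, the other members split. MB was 0.731 times its median, CKMT2 0.679 times and SLC6A8 0.689 times, whereas CKM was 1.29 times and AK1 1.20 times. AMPD3 was close to its median there. In Little_R, where the other 6 genes were at their lowest, CKB was 83.95 CPM, 0.808 times the median and rank 14 from the lowest. In 537, CKB was 0.390 times its median and among the lowest 3, as were the other 6 genes. The ratio of CKM to CKB counts, again a comparison between animals alone, ran from 5.78 (4X0354) to 59.995 (4X0550), with a median of 24.9.

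The creatine transporter SLC6A8 varied least. It was 47.3 CPM in Little_R, 171 CPM at the median and 259 CPM in 4X0357, with a coefficient of variation of 28.2%. The lowest 3 animals, Little_R, 4X0354 (56.0 CPM) and 537 (89.7 CPM), were the same as for CKM and in the same order. SLC6A8 has near-identical partial copies in primate genomes, and reads that could belong to a copy may have been split or lost in counting, so its level is uncertain.

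AK1 was 38.4 CPM in the lowest animal (Little_R), 181.5 CPM at the median and 350 CPM in the highest (4X0339), with a coefficient of variation of 37.03%. Its 3 lowest animals, Little_R, 537 (46.2 CPM) and 495 (93.6 CPM), were those of MB. AMPD3 was at the low end of detection, with 0.438 CPM in Little_R, 2.80 CPM at the median and 8.12 CPM in 4x0025. These levels rested on 12 counts in the lowest library and 197 counts at the median, against at least 1052 counts in every library for each of the other members. In 4x0025, with AMPD3 at 2.90 times its median, MB and CKM were 0.482 and 0.4998 times theirs, so AMPD3 did not keep the order of the other genes in that heart.

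**Figure D1:**
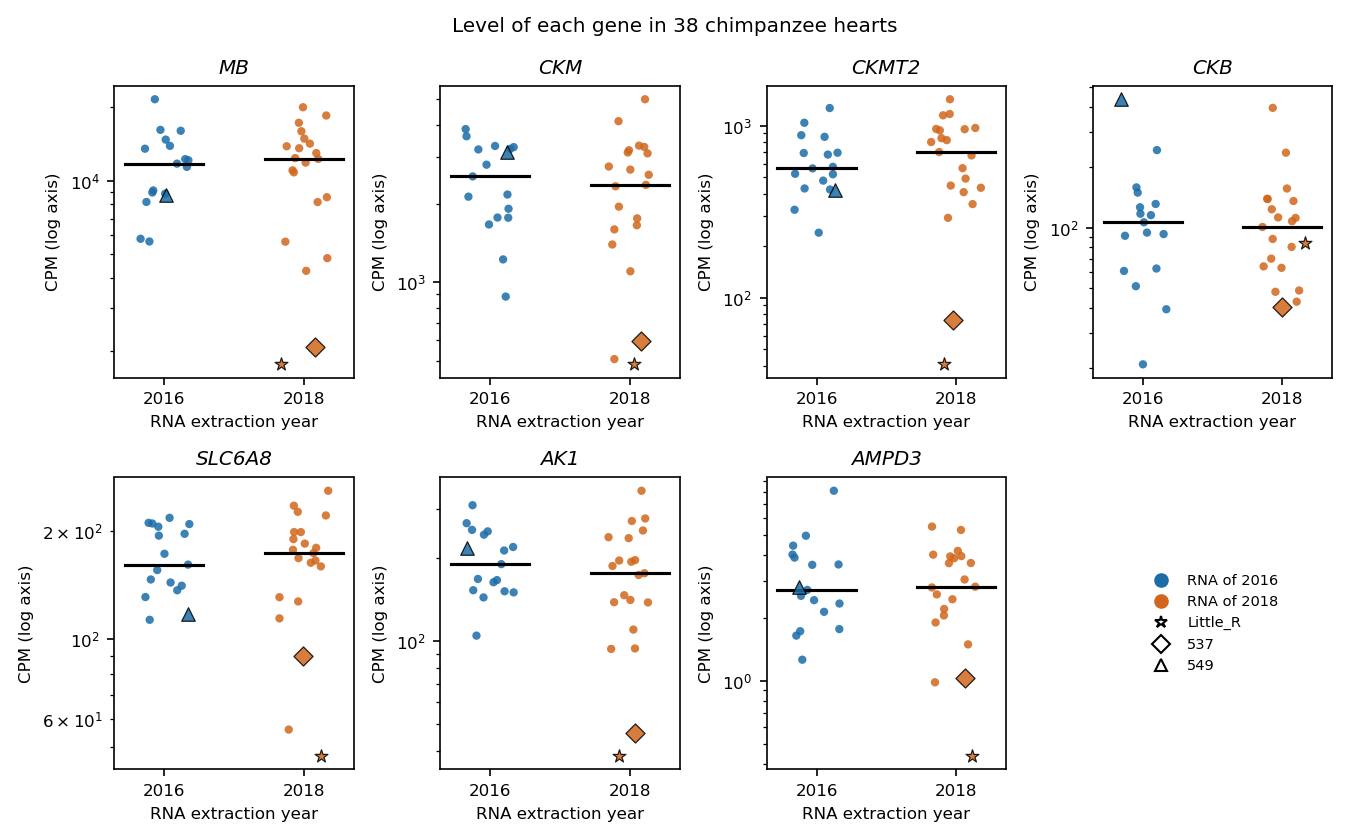
Level of each gene in CPM (log axis) in every heart, by the year of RNA extraction, with 1 point per animal and the animals that stand apart named. The years overlap for all 7 genes, and Little_R is lowest in 6 of them, the exception being CKB.

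The first comparison asked whether the members differed by the year of extraction, in 1 model with sex and RIN (edgeR quasi-likelihood test, 16462 genes, Benjamini-Hochberg adjustment). None of the 7 members passed an adjusted p of 0.05, and 15.1% of all genes tested did (2488 genes, 1996 higher and 492 lower in 2018). With only 7 genes, the absence of calls does not set the members apart from that share. The estimates for 2018 against the earlier extraction were log2 -0.14 (SE 0.24, adjusted p = 0.738) for MB, -0.19 (SE 0.24, adjusted p = 0.638) for CKM and 0.06 (SE 0.28, adjusted p = 0.917) for CKMT2. CKB had the largest estimate, log2 -0.41 (SE 0.25, adjusted p = 0.278). It was -0.22 without 549. Without 537 and Little_R the estimate was 0.01 for MB, -0.05 for CKM, 0.23 for CKMT2, -0.40 for CKB and -0.11 for AK1, none of which passed. SLC6A8 (-0.07), AK1 (-0.25) and AMPD3 (-0.17) had adjusted p-values from 0.422 to 0.797. The median of the 7 estimates was -0.17, against -0.16 for the 12 cardiomyocyte markers and 0.01 for all genes. The split of the calls depended on scaling: with the annotated gene total as library size, 860 genes were higher and 1043 lower, the median of all genes was -0.19, and still no member passed.

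RNA quality was the second covariate. No gene of 16462 passed for the RIN slope (0%) by edgeR, although 2276 genes had an unadjusted p under 0.05 and DESeq2 called 201. All 7 members had a slope below 0, from log2 -0.30 per RIN unit for CKB to -0.06 for SLC6A8. Their median was -0.12, against -0.10 for the 12 cardiomyocyte markers and 0.01 for all genes. The share of all genes with a slope below 0 was not computed. The slope of CKB, the brain-type creatine kinase, was -0.30 (SE 0.078, p = 0.000414, adjusted p = 0.151 by edgeR), the 37th smallest p of all genes. It passed by DESeq2 (adjusted p = 0.0294), 1 of 46 alternatives that passed, over which the adjusted p ran from 0.0294 to 0.817. Within the 2018 animals the CKB slope was -0.35 (SE 0.060, adjusted p = 0.112) and within the earlier ones it was -0.17 (SE 0.23, adjusted p = 0.817). The other 6 members had slopes of -0.13 to -0.06 in 2018, which lay between -0.05 and -0.01 once 537 and Little_R were left out, a setting chosen after seeing the data. In the earlier animals their slopes ran from -0.36 (AMPD3, SE 0.17) to -0.03 (AK1, SE 0.10). A term for a RIN slope that differs between the years passed for none of 17187 genes.

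Males and females did not separate in any member. The test called 40 genes of 16462 (0.243%) and no member. CKB had the largest estimate, log2 0.42 in males (SE 0.24, p = 0.0894, adjusted p = 0.685 by edgeR), with medians of 110 CPM in males and 97.9 CPM in females and overlapping ranges. This estimate fell to 0.22 without 549. It was 0.89 (SE 0.42) within the earlier animals and -0.03 (SE 0.23) within 2018. The difference between the years was tested after seeing the data and did not pass (log2 -0.87, p = 0.0749, adjusted p = 0.999). The remaining 6 estimates lay between -0.14 (AMPD3) and 0.17 (AK1), and within the years between -0.28 and 0.31.

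Age at death was tested in the 34 animals with a listed age. No gene of 16517 passed (0%) by edgeR, with 1669 at an unadjusted p under 0.05 and 23 called by DESeq2. MB had the largest estimate of the group, log2 0.19 per 10 years (SE 0.087, p = 0.037, adjusted p = 0.475). AMPD3 followed with 0.18 (SE 0.092, p = 0.061, adjusted p = 0.509). CKM, CKMT2 and AK1 had 0.12, 0.11 and 0.12, CKB had -0.05 and SLC6A8 -0.01, so 5 of 7 members had a slope above 0 and none passed. The median was 0.12 for the members and for the 12 cardiomyocyte markers, against -0.01 for all genes.

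**Figure D2:**
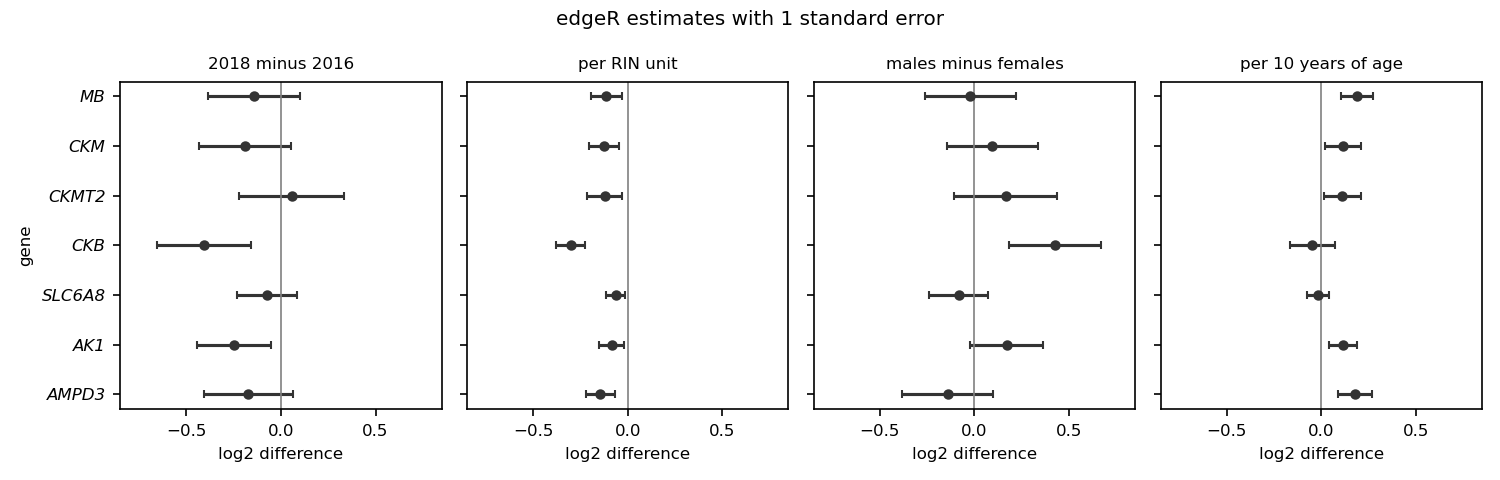
Estimates for the 7 genes from the edgeR fits, as log2 differences with 1 standard error, for the year of extraction, RIN (per unit), sex and age (per 10 years). No estimate passed after adjustment over all genes, and CKB lies farthest from 0 for year, RIN and sex.

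The neighbouring pathways were read from lists of genes, by the same test. For the year of extraction, 0 of 2 creatine synthesis genes, 0 of 6 other adenylate kinases, 0 of 6 carriers and pores of ATP and ADP exchange and 0 of 5 other globins passed. Among 12 genes of AMP deamination, the purine nucleotide cycle and salvage, APRT alone passed. It encodes adenine phosphoribosyltransferase, which returns adenine to AMP, and was lower in 2018 (log2 -0.36, SE 0.12, adjusted p = 0.0437). Of 5 subunits of the AMP-activated kinase, the energy sensor of the cell, PRKAA1 passed and was lower in 2018 (log2 -0.35, SE 0.096, adjusted p = 0.0109). Of 12 regulators of oxidative metabolism, NRF1, a transcription factor of nuclear genes for mitochondrial proteins, passed and was higher in 2018 (log2 0.30, SE 0.10, adjusted p = 0.0449).

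These 3 calls depended on the settings: of 45 alternatives, 43 passed for PRKAA1, 28 for APRT and 13 for NRF1. NRF1 had log2 0.04 (adjusted p = 0.842) with the annotated gene total as library size. It also missed the threshold without 537 and Little_R (adjusted p = 0.301). In the animals of the Yerkes center alone the adjusted p was 0.190 for APRT and 0.212 for PRKAA1, over ranges of 0.00293 to 0.190 and 0.00290 to 0.212 across 45 alternatives. At most 1 gene of any of these lists passed for year, and none passed for RIN, sex or age. Beside the year, all 7 macrophage markers were lower in 2018 (median log2 -1.40) and 3 of 6 atrial markers were lower. Higher in 2018 were 2 of 4 skeletal muscle markers (TNNT3 and ACTN3, list median log2 0.92), 1 of 5 adipocyte markers (FABP4), 1 of 6 endothelial markers (EGFL7) and 1 of 7 smooth muscle and pericyte markers (PDGFRB), and no cardiomyocyte marker of 12 passed. Their part in the members' estimates was not tested.

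Variability between animals was measured as dispersion. This is the difference in natural log units of the overdispersion of a gene from a LOESS trend of genes with the same mean (13121 genes). The total of counts on orthologous exons was the library size. Standard errors came from resampled animals against a fixed trend, so they leave out the uncertainty of the trend itself. A gene above 0 varied more between animals than genes of its level. CKB had the highest dispersion of the 7, 1.29 (SE 0.279), above 91.4% of genes. CKMT2 came next with 0.716 (SE 0.388), above 79.5% of genes. AK1 (0.111, SE 0.364) and CKM (0.0937, SE 0.290) lay within 1 SE of the trend, as did MB (-0.330, SE 0.345), SLC6A8 (-0.300, SE 0.411) and AMPD3 (-0.258, SE 0.307). With a LOESS span of 0.3, MB was -0.855 and CKM -0.328, below the trend by more than 1 SE. In all, 4 of 7 members were above 0, beside 44.4% of all genes, and the median of the members was 0.0937 against -0.130. No test was made of these values.

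The 3 animals moved these values unequally. Without Little_R, dispersion was 0.328 for CKMT2, -0.109 for CKM, -0.248 for AK1, -0.643 for MB and -0.683 for SLC6A8. For CKB it was 1.04 without 549 and 1.57 without 537 and Little_R. CKB had 2.10 among the earlier animals alone and 0.922 among those of 2018. In the other lists, 7 of 12 purine genes (median 0.412), 3 of 6 genes of ATP and ADP exchange (median 0.0205), 3 of 5 subunits of the AMP-activated kinase (median 0.0301) and 5 of 12 oxidative regulators (median -0.200) were above 0. Of 5 other adenylate kinases 2 were above 0 (median -0.543). All 7 fibroblast markers (median 1.996) and 9 of 12 cardiomyocyte markers (median 0.495) were above 0.

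**Figure D3:**
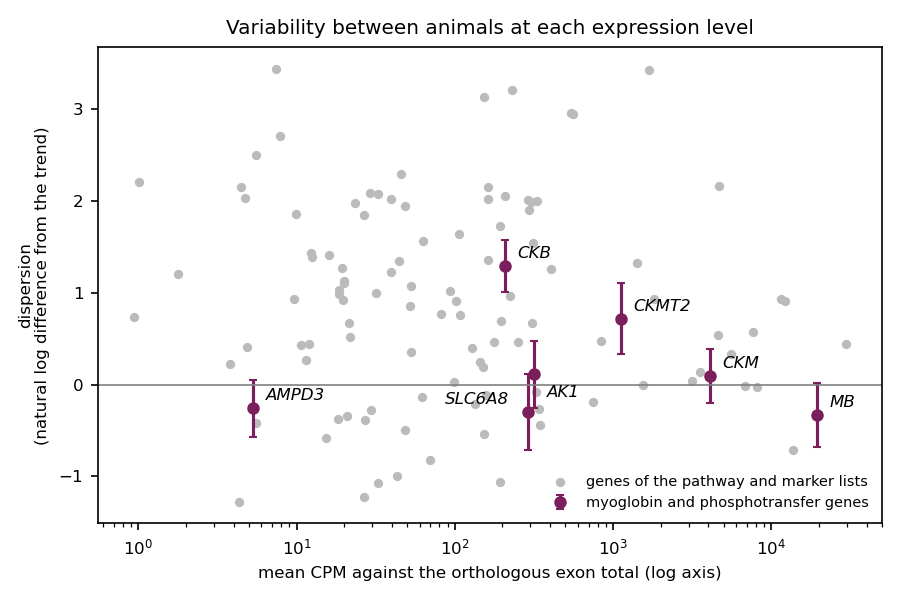
Dispersion of the 7 genes (purple, with standard errors) against the mean level in CPM (log axis), beside the genes of the pathway and marker lists (grey). CKB at 1.29 and CKMT2 at 0.716 are above the trend at 0, and the other 5 genes lie within 1 SE of it at the span of 0.75.

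The genes rose and fell together between hearts. In log2(CPM + 0.5), all 21 pairs had a Pearson r above 0 over the 38 animals, and 19 passed after adjustment over the 21 pairs (two-sided permutation test, 100000 resamples) by r and 17 by Spearman's rho. MB and AK1 were the closest pair, with r = 0.92 and rho = 0.86 (adjusted p = 2.6e-05, from the smallest p the resamples can give). MB also followed CKMT2 (r = 0.86, rho = 0.70) and CKM (r = 0.81, rho = 0.71). By rho, however, CKM came at rank 281 and CKMT2 at rank 302 of 14805 genes in closeness to MB. The share of all gene pairs that would pass was not computed. The muscle and mitochondrial creatine kinases followed each other with r = 0.84 and rho = 0.83, CKM followed AK1 with r = 0.86 and rho = 0.80, and CKMT2 followed AK1 with r = 0.84 and rho = 0.68.

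Little_R and 537 carried part of the pooled r. Without both, r was 0.84 for MB and AK1, 0.70 for MB and CKM, 0.69 for MB and CKMT2, 0.77 for CKM and CKMT2 and 0.64 for CKMT2 and AK1. These are the animals farthest from the median of MB and of CKMT2, so leaving out the 2 farthest on either gene gave the same values. On CKM the 2 farthest were 4X0354 and Little_R, and without them r for CKM and CKMT2 was 0.88. Within the year of extraction, r for MB and AK1 was 0.83 in the earlier extraction and 0.94 in 2018. For CKM and CKMT2 it was 0.82 and 0.86, and for MB and CKMT2 0.65 and 0.91.

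SLC6A8 was closest to CKM, with r = 0.83 and rho = 0.72 (0.56 in the earlier extraction, 0.90 in 2018, 0.76 without 537 and Little_R), and followed CKMT2 with r = 0.76 and rho = 0.70. CKB was the loosest of the creatine kinases. Its r was 0.49 with CKM (rho 0.51, adjusted p = 0.00273), 0.35 with CKMT2 (rho 0.35) and with MB (rho 0.42, both adjusted p = 0.0369), and 0.29 with SLC6A8 (rho 0.43, adjusted p = 0.076). These adjusted p-values are for r, and the rho with SLC6A8 passed (adjusted p = 0.0114). By r, the pairs of CKB with MB and with CKMT2 missed the threshold without 537 and Little_R (r = 0.31 and 0.35, adjusted p = 0.0975 and 0.0575), in each year alone, on residuals from sex, year and RIN and with the orthologous exon total. By rho, CKB and MB passed without both (adjusted p = 0.045), in 2018 (0.0237) and with the orthologous exon total (0.0415). They missed it in the earlier extraction and on the residuals. CKB and CKMT2 passed by rho in none of these settings. The pair of CKB and CKM had 0.69 in the earlier extraction, 0.42 in 2018 and 0.48 without 537 and Little_R.

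The correlations of AMPD3 rested in large part on 537 and Little_R. With MB, r was 0.47 (rho 0.29) over all animals and 0.14 without 537 and Little_R, -0.32 in the earlier extraction and 0.76 in 2018. With AK1 it was 0.48 (rho 0.30) over all animals, 0.15 without both, -0.24 in the earlier extraction and 0.74 in 2018. With CKMT2, the mitochondrial creatine kinase, it was 0.57 (rho 0.37) and 0.25 without both. With CKM it was 0.53 (rho 0.45) and 0.31 without both (adjusted p = 0.0975 by permutation). The rho with CKM was then 0.35 and passed (adjusted p = 0.0493 by permutation). Within 2018 without both, r was 0.51 with MB, 0.46 with AK1, 0.42 with CKMT2, 0.41 with CKM and 0.17 with SLC6A8, and none of these passed. The difference between the years was not tested. The median count of AMPD3 was 201 in the 17 animals of the earlier extraction (lowest 83) and 194 in the 21 of 2018 (lowest 12).

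Under 10 settings on the counts, 8 pairs passed each time: MB with CKM, CKMT2 and AK1; CKM with CKMT2, SLC6A8 and AK1; and CKMT2 with SLC6A8 and AK1. In the normalized matrix the authors deposited, which standardizes each gene and then ranks each animal's values onto a normal curve (37 animals, 15 pairs without SLC6A8), 5 pairs passed. They were MB with AK1 (r = 0.93), MB with CKMT2 (0.54), CKMT2 with AK1 (0.53) and, outside those 8, CKM with CKB (0.42) and CKMT2 with AMPD3 (0.51). CKM had 0.29 with CKMT2, 0.19 with MB and 0.16 with AK1 (adjusted p = 0.398).

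**Figure D4:**
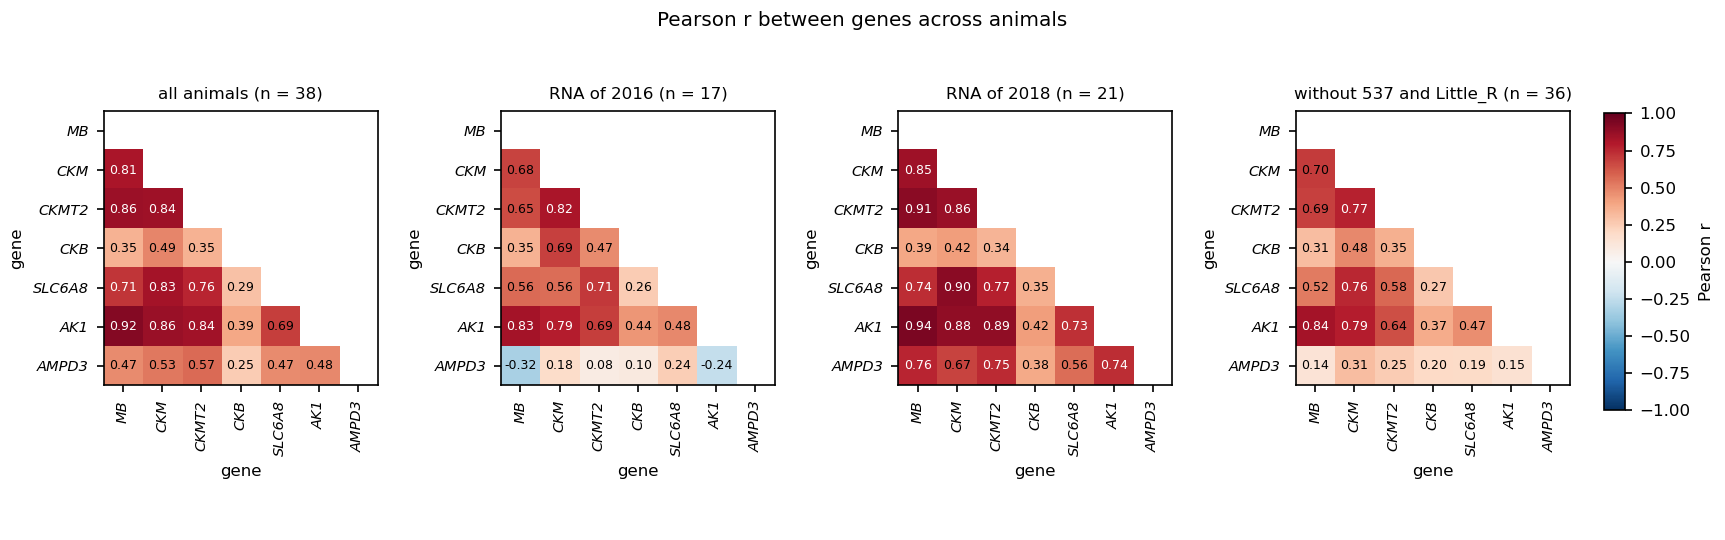
Pearson r between the 7 genes across animals, in panels for all animals, each year of extraction, and all animals without 537 and Little_R (colour scale from r). MB, CKM, CKMT2 and AK1 have r of 0.64 or more with each other in every panel, SLC6A8 with AK1 has 0.48 in the earlier extraction, and the AMPD3 pairs range from -0.32 (with MB, earlier extraction) to 0.76 (with MB, 2018).

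The members were then compared with sums of marker genes of 11 kinds of cell or chamber and with the mitochondrial share, 84 relations in all. No member is in a marker list. By r, 28 passed after adjustment over the 84 (11 positive, 17 negative), and 15 by rho. The cardiomyocyte sum had the highest r with each of MB (r = 0.90, rho = 0.83), CKMT2 (r = 0.88, rho = 0.76), AK1 (r = 0.88, rho = 0.81) and CKM (r = 0.84, rho = 0.82). These 4 relations passed under each of the 10 settings. Without 537 and Little_R their r was 0.81, 0.73, 0.75 and 0.74, and within the earlier extraction it was 0.77, 0.69, 0.76 and 0.76. SLC6A8 had r = 0.74 (rho = 0.64) and 0.55 without both. For AMPD3, r was 0.52 (rho = 0.38) over all animals, 0.21 without both and 0.00 in the earlier extraction.

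CKB did not follow the cardiomyocyte sum at a detectable level, with r = 0.21 and rho = 0.26 (adjusted p = 0.384 for r), 0.19 in the earlier extraction and 0.25 in 2018. No marker sum of the 11 passed with CKB over all animals. Without 549, the adipocyte sum passed with r = 0.40 (adjusted p = 0.0414), against 0.34 (adjusted p = 0.101) with that animal. Within 2018 alone the Schwann and neuronal sum passed with r = -0.52 (adjusted p = 0.0423), and it was 0.24 in the earlier extraction and -0.17 over all animals.

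**Figure D5:**
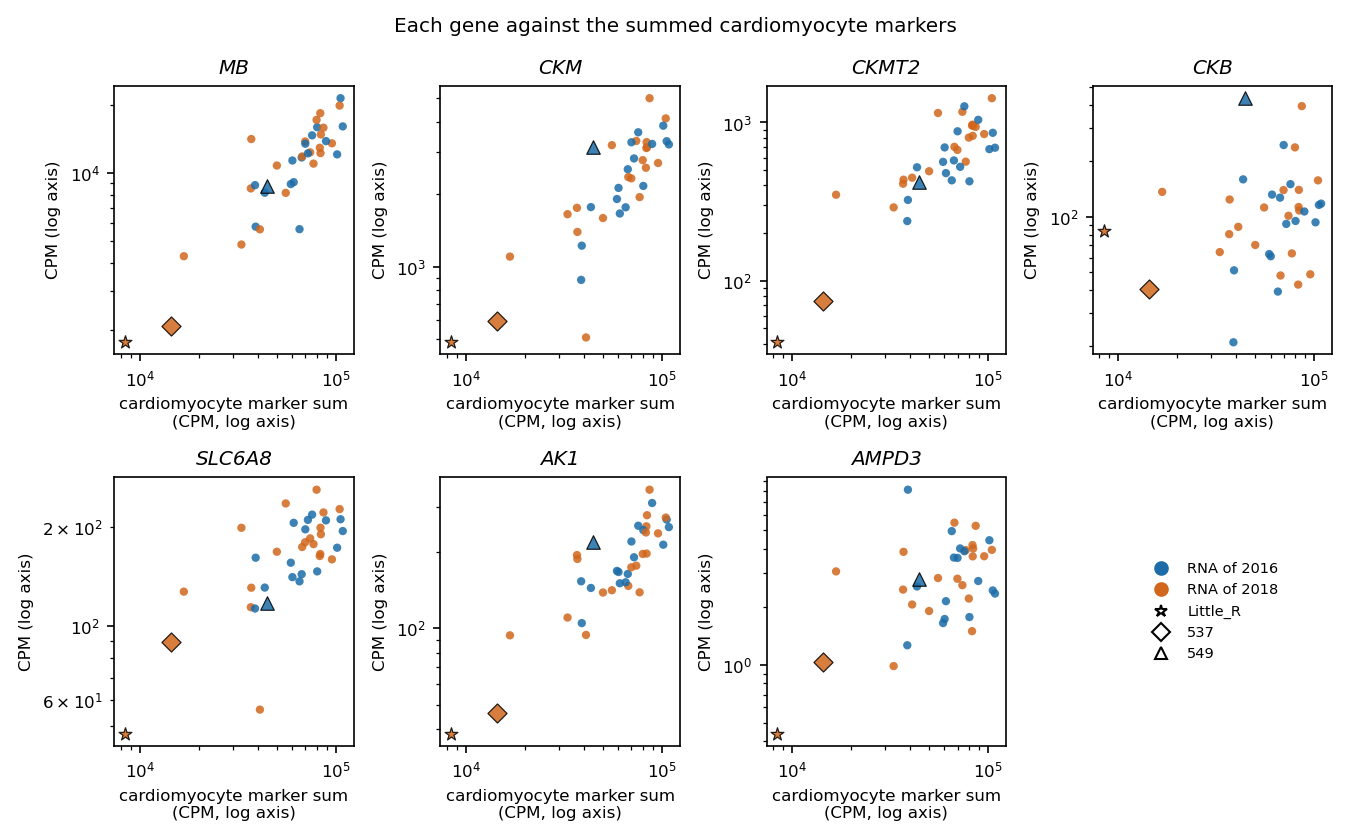
Each gene (CPM, log axis) against the summed level of 12 cardiomyocyte markers (CPM, log axis), 1 point per animal, coloured by year of extraction. MB, CKM, CKMT2 and AK1 rise with the markers across the whole range, whereas CKB shows a wide spread at every marker level.

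The negative relations rested in part on 537 and Little_R, the animals with the lowest cardiomyocyte sums. Over all 38 hearts, 6 members fell with rising fibroblast sum (r from -0.64 to -0.41), 5 with the endothelial sum (r from -0.64 to -0.45) and 4 with the sum of smooth muscle and pericyte markers (r from -0.45 to -0.42). Without 537 and Little_R no negative relation passed, and without Little_R alone 9 did. Within 2018 without both 4 passed, those of the endothelial sum with MB, CKM, CKMT2 and AK1. The lowest r of the 84 relations in that setting was -0.68, against -0.64 over all animals. Within the earlier extraction the endothelial sum had r above 0 with each of the 5 (0.0649 for MB to 0.42 for SLC6A8), and none of these passed. The ventricular sum, which shares MYL2 and MYL3 with the cardiomyocyte list, passed with 5 members (r from 0.46 to 0.60), and with 6 when 549 was left out. Without 537 and Little_R it passed with MB alone (r = 0.47, adjusted p = 0.0483), and r was 0.30 for CKM, 0.43 for CKMT2, 0.48 for SLC6A8 and 0.34 for AK1. The same 4 genes missed the threshold without Little_R alone and with the orthologous exon total as library size.

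The mitochondrial share had opposite signs in the years. Over all animals, r was -0.40 for MB (adjusted p = 0.0453), -0.39 for CKMT2, -0.30 for AK1 and -0.27 for CKM. Within the earlier hearts, whose shares ended at 34.98%, r was 0.75 for MB (adjusted p = 0.00672), 0.66 for CKMT2 (adjusted p = 0.0323), 0.79 for AK1 and 0.80 for CKM. Within 2018 it was -0.62, -0.63, -0.44 and -0.48. The pooled relation of MB rested on the 2 animals that stand apart (r = -0.06 without them), and within 2018 r for MB was -0.42 without both. The difference between the years was not tested.

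The genes whose pattern over the 38 animals was closest to each member, by Spearman's rho among 14805 genes, give a description with no test. For MB they were MTFR1L (rho = 0.876), AK1 (0.864) and CHCHD7 (0.849). For CKM they were STOML2 (0.895), NDUFS8 (0.892) and UQCRC1 (0.891), the last 2 being subunits of respiratory complexes. For CKMT2 they were KGD4 (0.939), SUCLG1 (0.937) and MRPL13 (0.931), of which SUCLG1 encodes a subunit of the citric acid cycle enzyme succinyl-CoA ligase and MRPL13 a mitochondrial ribosomal protein. AK1 had COX4I1 (0.883), a subunit of cytochrome c oxidase, RNF5 (0.874) and PRDX2 (0.873), and MB came at rank 4. Most members were not near neighbours of each other. For MB, CKM came at rank 281, CKMT2 at 302, SLC6A8 at 945, CKB at 2611 and AMPD3 at 4066. For CKMT2, CKM came at rank 87 and MB at 518.

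The neighbours of the other members were farther away. Among the genes closest to SLC6A8 were ESRRB (rho = 0.782) and GPI (0.755), the glycolytic enzyme glucose-6-phosphate isomerase. AMPD3 was closest to CELSR2 (0.803), STXBP6 (0.724) and AGMAT (0.712), the last with a mean of 0.299 CPM. CKB had no gene above 0.7, with SHLD1 (0.625), NUDT22 (0.617) and SARS2 (0.610) at the top. The number of genes above a rho of 0.7 was 531 for CKMT2, 428 for CKM, 343 for AK1, 320 for MB, 27 for SLC6A8, 5 for AMPD3 and 0 for CKB. These points share the libraries and the mix of cells in each piece of tissue.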

How the data were processed

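Per the labels, RNA was extracted with Trizol and libraries were made with the TruSeq RNA kit v2 after selection of polyA RNA. The authors deposited raw counts per annotated gene (31373 genes, from STAR gene counting on Pan_tro_3.0; STAR 2.6.1b per the submitters' processing notes) and raw counts on exons orthologous to human, made by the authors with featureCounts 1.6.3 per the file headers. A further matrix deposited by the authors holds scores: log CPM standardized per gene and quantile normalized per animal (13545 genes, 37 animals). Not used were 52 per-sample columns that belong to no sample of this series, 49 of them human. The kit does not mark strand, so reads of overlapping antisense genes cannot be told apart.

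Symbols came from a reference table of Ensembl identifiers (18040 of 31373 identifiers matched). The members and gene lists were chosen with earlier results of these data known. Named were the 7 members, the 3 genes with the highest Spearman's rho to each, and list genes that passed a test; 1 item is not reported here. Year, RIN and sex were fitted together in edgeR 4.0.16 (quasi-likelihood test, TMM, filterByExpr, Benjamini-Hochberg, threshold 0.05), and age per 10 years in a further fit. DESeq2 1.42.0 was an alternative. Each covariate came from the study's sample table. Correlations used log2(CPM + 0.5) and 100000 resamples, so the smallest p was 1e-05. Dispersion was modelled on the study's measure (negative binomial overdispersion, at least 6 CPM in at least 1 animal, LOESS degree 1) but used annotated gene counts against the orthologous exon total, where the study counted orthologous exons, and a span of 0.75 chosen here. The analysis ran in R 4.3.3 and Python 3.11.15 with SciPy 1.17.1. The edgeR fit for year, the overdispersion estimate and the permutation test of r were tried on simulated data, and the other steps were not. The alternatives were other normalizations, no filter, single years or centers, and animals left out. Exon lengths were not used here, so levels are compared between animals and not between genes. With 1 library per animal the spread holds technical and biological variation together. At the median depth, counting error is small against the spread between animals for every member, AMPD3 least so.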

Additional observations from a re-analysis of the deposited data

How the results depend on the processing

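No member passed a test for year, RIN, sex or age under the alternatives, except the RIN slope of CKB by DESeq2 (log2 -0.30, adjusted p = 0.0294). The count of genes for the year was 3742 by DESeq2, 1569 without 537 and Little_R and 293 in the Yerkes animals alone, and leaving out 1 animal at a time gave 1900 (without 558) to 2903 (without 4X0550). For RIN, with 0 genes, it was 201 by DESeq2 and 2 with no filter, with the orthologous exon total or in the earlier extraction alone, and 0 to 9 without 1 animal (9 without 495). For sex, with 40 genes, it was 165 by DESeq2 and 18 in 2018 alone, and 24 (without 549) to 64 without 1 animal (4X0550 or Little_R). For age, with 0 genes, it was 23 by DESeq2 and 8 with no filter, and 0 to 3 without 1 animal (3 without 4X0267). Against 19 of 21 member pairs, 10 passed in the earlier extraction alone, 12 without 537 and Little_R, 8 in 2018 without both and 5 of 15 in the authors' matrix. Against 28 of 84 relations with marker sums and the mitochondrial share, 10 passed in the earlier extraction alone, 15 without the 2 animals farthest from the median, 15 without Little_R, 6 without 537 and Little_R, 12 in 2018 without both and 18 with the orthologous exon total. In the earlier extraction alone some relations turned: r was -0.32 for MB with AMPD3, -0.24 for AK1 with AMPD3, 0.75 for MB and 0.66 for CKMT2 with the mitochondrial share, and 0.0649, 0.41, 0.29, 0.42 and 0.11 for MB, CKM, CKMT2, SLC6A8 and AK1 with the endothelial sum. The cause was not tested. Of 217 estimates of single genes, 204 stayed on their side of the threshold, and 4 of 7 members were above the dispersion trend, against 3 to 5 under the alternatives. No paired analysis was possible because the labels give a single group. Leaving out Little_R alone, in 2018 without both, and 549 were chosen after seeing the data. Levels per length, member values on orthologous exons and AMPD3 dispersion at a median of at least 6 CPM could not be had, and AMPD3 is limited by depth.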
